A study of Homo sapiens with 9 samples.

Results

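The genes described here are the ligands, receptors and a receptor SMAD of the bone morphogenetic protein (BMP) pathway. They were chosen by symbol as 10 of the 60199 rows of the count table, by a rule that uses no measured value, though with earlier results of these data known: the ligands BMP2, BMP4 and BMP7, the type I receptors BMPR1A, BMPR1B and ACVR1, the type II receptors BMPR2, ACVR2A and ACVR2B, and SMAD1. RNA was sequenced in 9 libraries from cells of MCF10A, an immortalised, non-tumorigenic line of human mammary epithelial cells. The 3 MCF10A-CT libraries (CT) came from untreated, non-transformed cells. The 3 MC26 libraries came from transformed cells that grew out of unsorted MCF10A cells kept for a long time in recombinant human BMP2 and interleukin 6 (IL6). The 3 M1B26 libraries came from transformed cells that grew out of MCF10A cells sorted for BMPR1B and kept in the same 2 factors, and per the study's methods that line was expanded from 3 clones picked in soft agar. MC26 and M1B26 differ from CT both in their history of transformation and in the factors present in their medium, and these cannot be told apart. The labels and the methods give different concentrations of BMP2 and IL6, so none is stated here.

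BMPs are secreted dimers that bring together type I and type II receptors, both of them transmembrane serine/threonine kinases. The type II receptor phosphorylates the type I receptor, which then phosphorylates the receptor SMADs SMAD1, SMAD5 and SMAD9. These bind SMAD4, enter the nucleus and switch on targets such as the ID genes, while SMAD6, SMAD7, BAMBI and secreted antagonists such as noggin hold the signal back. In the mammary gland BMP signalling is known for its part in the growth of the ducts and in the balance between luminal and basal epithelial cells. The recombinant BMP2 in the medium of MC26 and M1B26 is a protein and gives no reads, so BMP2 counts measure the cells' own transcript.

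The comparison of lines asks whether the receptors and ligands through which BMP2 acts were themselves expressed differently after transformation. In MC26, BMP4 and ACVR2B fell and ACVR1 rose. In M1B26, BMPR2 and BMPR1B were lower than in CT, and BMPR1B is the receptor on which the founding cells were sorted. BMP2 and BMP4 were also called lower there, though less firmly. BMPR1A, ACVR2A and SMAD1 passed the test in no comparison, and BMP7 was all but absent. With edgeR and a Benjamini-Hochberg adjusted p under 0.05 over all 15717 genes tested, 9 of the 10 genes were tested, since BMP7 had too few counts. The test called 3 of these 9 in MC26 against CT (1 higher, 2 lower), where 38.7% of all genes tested were called (18.8% higher, 19.9% lower). It called 4 in M1B26 against CT (all lower), where 48.9% of all genes were called (25.2% higher, 23.7% lower), and 3 in M1B26 against MC26 (1 higher, 2 lower), where 39.5% were (21.2% higher, 18.4% lower). The shares of the 9 genes called, 33.3%, 44.4% and 33.3%, lay near those among all genes, so these counts do not set the 9 genes apart. All 3 comparisons are linked, since those with CT share the CT libraries and those with M1B26 or MC26 share theirs.

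Total counts ran from 21425118 in CT replicate 2 to 80076597 in CT replicate 3. Levels are given as CPM, the count a gene would have in a library of 1000000 counts, with TMM factors between 0.968 and 1.07, and 3 counts, taken as the detection limit, stood for 0.0366 to 0.131 CPM. All 10 mammary epithelial markers checked reached 1 CPM in each line, but several differed between lines. Against CT, edgeR called KRT14 (log2 fold change 4.34), TP63 (1.29) and ITGA6 (1.39) higher in MC26. EPCAM (-2.25), CDH1 (-0.91), KRT8 (-0.88) and KRT18 (-0.29) were lower there, and KRT5, KRT17 and EGFR were not called. M1B26 exceeded CT in KRT14 (3.33), TP63 (1.31) and ITGA6 (0.93). It was lower in CDH1 (-0.79), EGFR (-0.48), KRT5 (-0.42) and KRT8 (-0.27), with KRT17, KRT18 and EPCAM not called. Leukocyte markers summed to 11.75 to 17.10 CPM in CT, 21.31 to 24.65 in MC26 and 39.24 to 53.26 in M1B26 (PTPRC at most 0.02858 CPM and CD3E at 0 in every library), endothelial markers to 8.150 to 8.256, 2.213 to 3.765 and 3.652 to 6.631 CPM (CDH5, TIE1 and VWF at most 0.08736 CPM), and fibroblast markers to 37.39 to 37.78, 17.11 to 56.80 and 28.54 to 39.89 CPM (COL1A2 at most 0.02367 and PDGFRA at most 0.1657 CPM). Among these markers, and named after their values were seen, CD14 averaged 38.53 ± 8.093 CPM over the M1B26 libraries against 9.078 ± 2.051 over CT and 13.17 ± 4.141 over MC26, and LUM 5.112 ± 0.9624 CPM against 0.1082 ± 0.03212 and 0.1281 ± 0.1589 (SD, n = 3). CD14 and LUM were called higher in M1B26 than in CT (log2 fold change 2.06 and 5.59, edgeR adjusted p 3.75e-05 and 7.88e-06). KDR was lower in MC26 than in CT (-1.51) and CSF1R higher (0.82), with edgeR adjusted p values of 4.38e-04 and 0.0379. The part of these markers in the results was not tested. The labels name no batch of preparation, so batch and line cannot be told apart if they coincide, and p-values measure the spread between the 3 libraries of a line, whether cultures or technical repeats. In RNA from whole cultures, fewer cells of a type and less RNA per cell cannot be told apart.

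Gene length moved with the lines, which bears on the long receptor transcripts. The median log2 fold change of M1B26 against CT was 0.237 over the 1462 genes with exons of less than 2 kb in all, and -0.188 over the 2203 genes of at least 10 kb. In MC26 against CT the same medians were 0.058 and -0.067. BMPR2 (12.5 kb), ACVR2B (15.71 kb) and BMPR1A (10.07 kb) lie in the longest class, ACVR1 (9.842 kb), SMAD1 (7.094 kb), BMPR1B (6.561 kb), ACVR2A (6.448 kb) and BMP7 (5.425 kb) in the next, and BMP2 (3.545 kb) and BMP4 (3.096 kb) in the class of 2 to 5 kb. A fit with offsets for exonic length, chosen after the data were examined, is therefore given beside the results it touches. CT replicate 2, the shallowest library, showed the largest such deviation of the CT libraries, at 0.140 in the longest class against 0.067 and 0.062 in the others.

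**Figure D1:**
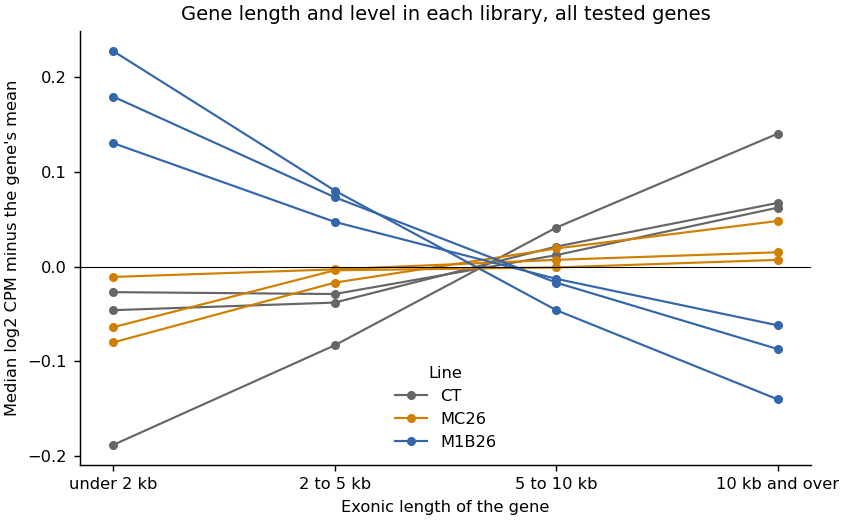
Median deviation of log2 CPM from each gene's mean over the 9 libraries (vertical axis) in 4 classes of exonic length (horizontal axis), with 1 line for each library. In the longest class the 3 M1B26 libraries lie between -0.140 and -0.062 and the 3 CT libraries between 0.062 and 0.140.

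The promoters of the 4 receptors that differed between lines are shown first, since they lie beside an annotated start of each differing gene. The window shown for a gene is the one beside its outermost start in GENCODE v44, and which start the cells used was not measured. Each sequence is the 250 bases before the RefSeq transcription start on GRCh38.p14, read in the direction of transcription. Of the 10 genes, 8 had an entry in this table of promoters, and BMP2 and BMP7 had none. Capitals mark GGCGCC, a GC-rich element that BMP-activated SMADs are known to bind. It is its own reverse complement, so both strands are searched at once.
BMPR1B promoter, chr4:94757705-94757954, plus strand: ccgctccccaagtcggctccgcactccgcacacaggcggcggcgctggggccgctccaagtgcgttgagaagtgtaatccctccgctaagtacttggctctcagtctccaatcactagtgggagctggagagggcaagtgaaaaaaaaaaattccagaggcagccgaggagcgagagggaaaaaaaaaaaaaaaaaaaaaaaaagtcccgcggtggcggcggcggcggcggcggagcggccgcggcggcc
BMPR2 promoter, chr2:202376077-202376326, plus strand: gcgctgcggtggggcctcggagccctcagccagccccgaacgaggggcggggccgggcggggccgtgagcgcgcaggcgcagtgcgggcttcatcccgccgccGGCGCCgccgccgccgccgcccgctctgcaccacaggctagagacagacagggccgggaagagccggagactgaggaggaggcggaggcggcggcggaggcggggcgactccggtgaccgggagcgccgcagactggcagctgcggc
ACVR2B promoter, chr3:38453640-38453889, plus strand: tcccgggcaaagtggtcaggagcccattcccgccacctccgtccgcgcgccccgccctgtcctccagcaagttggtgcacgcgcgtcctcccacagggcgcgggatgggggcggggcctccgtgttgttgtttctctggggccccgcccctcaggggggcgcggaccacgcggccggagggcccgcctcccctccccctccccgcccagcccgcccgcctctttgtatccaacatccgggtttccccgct
ACVR1 promoter, chr2:157876331-157876580, minus strand: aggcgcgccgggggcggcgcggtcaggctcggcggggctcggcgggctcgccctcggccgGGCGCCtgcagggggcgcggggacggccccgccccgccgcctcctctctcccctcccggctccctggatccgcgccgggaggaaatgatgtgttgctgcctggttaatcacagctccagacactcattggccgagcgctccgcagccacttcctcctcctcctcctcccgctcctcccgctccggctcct
The element occurred once in the BMPR2 window, 147 to 142 bases before the start, and once in the ACVR1 window, 190 to 185 bases before it. It was in neither the BMPR1B nor the ACVR2B window shown. The table holds 1 window each for BMPR2 and ACVR2B but 3 for ACVR1, of which 1 held the element, and 3 for BMPR1B, of which 0 did. Of the 5 windows of SMAD1, which was not called, 2 held it. Among all 35116 windows of this length, 16.4% held it, and these windows are GC-rich, with a median GC content of 58.0% against 60.0% for BMPR1B, 79.2% for BMPR2, 74.0% for ACVR2B and 75.2% for ACVR1. A match is a description of these letters and not a measured binding site.

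Divided by exonic length, the levels ran from several CPM per kb for BMPR2 and BMPR1A to the detection limit for BMP7. In CT, BMPR2 (4.89 ± 0.541 CPM per kb, SD, n = 3) and BMPR1A (4.61 ± 0.508) were highest and overlapped, followed by SMAD1 (3.59 ± 0.191), BMPR1B (1.93 ± 0.338), ACVR1 (1.65 ± 0.0816), ACVR2A (0.955 ± 0.0594), BMP2 (0.692 ± 0.0914), ACVR2B (0.486 ± 0.0219), BMP4 (0.328 ± 0.0342) and BMP7 (0.00338 ± 0.00407). Below BMPR1A the ranges of neighbours in this order did not overlap. The order differed between lines at a few places. In MC26, ACVR1 (2.02 ± 0.0986 CPM per kb) stood above BMPR1B (1.58 ± 0.125), with no overlap. In M1B26, BMPR1A (4.34 ± 0.301 CPM per kb) came first, SMAD1 (3.36 ± 0.115) and BMPR2 (3.08 ± 0.372) overlapped behind it, ACVR1 (1.76 ± 0.0605) stood above BMPR1B (1.25 ± 0.0359), and BMP2 (0.499 ± 0.0434) and ACVR2B (0.498 ± 0.0656) overlapped.

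**Figure D2:**
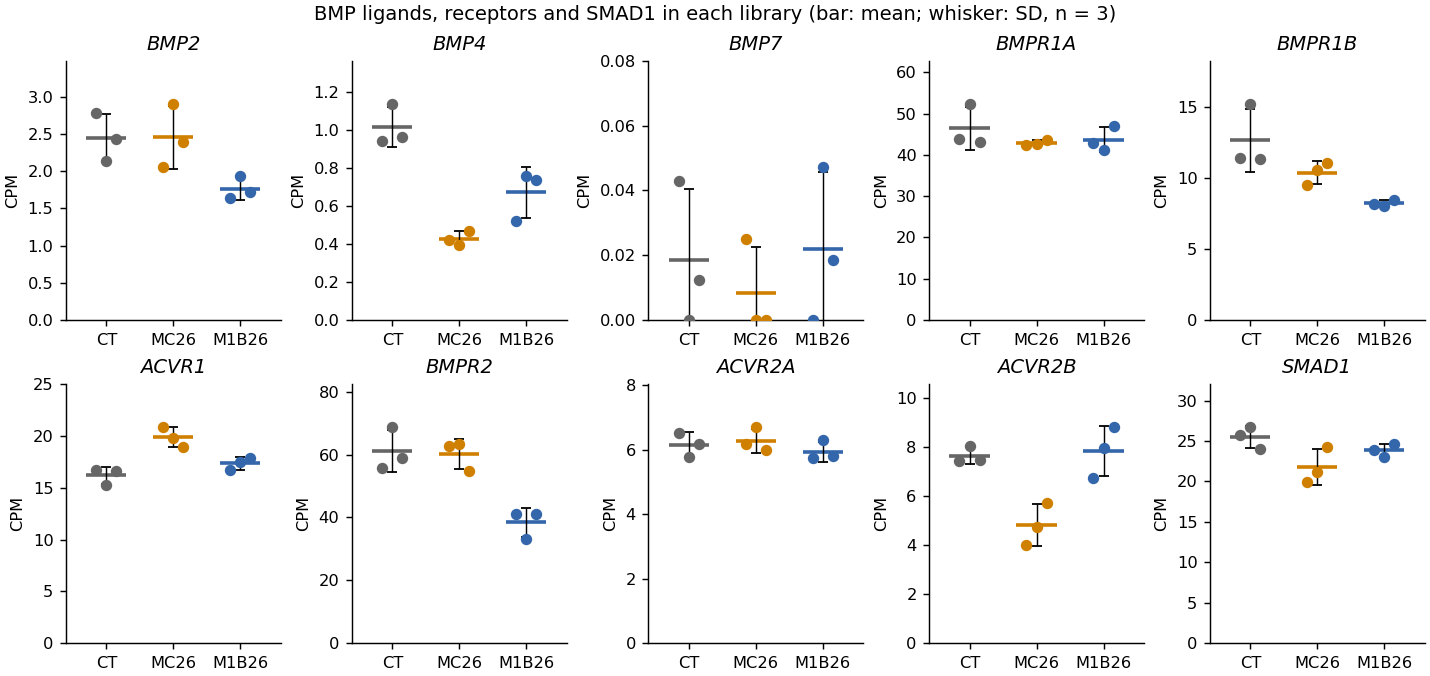
Level of each of the 10 genes in CPM (vertical axes, each from 0 with its own scale) in the 3 libraries of CT, MC26 and M1B26. Points are libraries, bars the mean and whiskers the SD (n = 3). BMPR2 and BMPR1B are lowest in M1B26, BMP4 and ACVR2B are lowest in MC26, and BMP7 stays under 0.05 CPM.

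Among the ligands, BMP4 was lower in both transformed lines, most of all in MC26. BMP4 (chromosome 14, 53949736 to 53958761, GENCODE v44 on GRCh38) encodes a close relative of BMP2 that uses the same receptors. It had 0.9432, 1.136 and 0.9639 CPM in CT replicates 1 to 3, 0.4227, 0.3922 and 0.4706 CPM in MC26, and 0.5185, 0.7574 and 0.7387 CPM in M1B26. The 3 lines did not overlap, with MC26 lowest and M1B26 between MC26 and CT. These levels rest on only 171, 52 and 95 counts per line. BMP4 fell by 1.21 on the log2 scale in MC26 (SE 0.23, edgeR adjusted p 0.00194), to 0.431 times the CT level. In M1B26 its log2 fold change was -0.57 (SE 0.21, edgeR adjusted p 0.0467), a call that was lost in each of the 9 fits that left out 1 library (adjusted p 0.0537 to 0.163, log2 fold change -0.65 to -0.41) and with DESeq2 (adjusted p 0.137). The call was also lost with no filter (0.144), the replicate block (0.0572) or only the 6 libraries compared (0.0630). It held with length offsets (-0.72, adjusted p 0.0196), RLE factors (-0.57, 0.0469) and unscaled total counts (-0.66, 0.0277). M1B26 stood 0.65 above MC26 (SE 0.24, edgeR adjusted p 0.0515), not past the threshold, though it passed without M1B26 replicate 1 (0.80, adjusted p 0.0295). In the annotation 16.3% of the BMP4 exons overlap a long non-coding RNA on the opposite strand, and whether the counting used strand is not given in the sources used here.

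BMP2 (chromosome 20, 6767686 to 6780246), the ligand that was also added as protein, did not rise in the lines that received it. Its transcript was at 2.787, 2.140 and 2.428 CPM in CT, at 2.064, 2.903 and 2.400 CPM in MC26, and at 1.646, 1.941 and 1.718 CPM in M1B26. CT and MC26 overlapped, and all 3 M1B26 libraries lay below every library of the other lines. The log2 fold change was -0.01 in MC26 (95% interval -0.39 to 0.36, edgeR adjusted p 0.958). It was -0.49 in M1B26 (SE 0.17, edgeR adjusted p 0.0372). That call was lost without CT replicate 1 (-0.39, adjusted p 0.154), CT replicate 3 (-0.50, 0.0727), M1B26 replicate 1 (-0.43, 0.109), M1B26 replicate 2 (-0.55, 0.0502) or M1B26 replicate 3 (-0.46, 0.0908), and held with length offsets (-0.60, adjusted p 0.0144). M1B26 against MC26 gave -0.47 (SE 0.18, edgeR adjusted p 0.0520), which missed the threshold. It passed with length offsets (-0.54, 0.0299), RLE factors (-0.48, 0.0483), unscaled total counts (-0.49, 0.0450) or a minimum mean of 50 counts (-0.47, 0.0472), and without CT replicate 2 (-0.48, 0.0410) or MC26 replicate 1 (-0.58, 0.0334).

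BMP7 (chromosome 20, 57168753 to 57266641), a ligand that acts mainly through ACVR1 with the activin type II receptors, had 3, 0 and 1 counts in CT, 1, 0 and 0 in MC26, and 0, 2 and 1 in M1B26. No library exceeded the limit of 3 counts, so no level and no difference was detectable at this depth. BMP6, a ligand related to BMP7, was by contrast measurable, at 0.6002, 0.7426 and 0.6222 CPM in CT, 0.8206, 1.072 and 0.8000 CPM in MC26, and 0.2254, 0.2604 and 0.4432 CPM in M1B26. BMP6 was lower in M1B26 than in CT (log2 fold change -1.02, SE 0.29, edgeR adjusted p 0.0132), a call lost without M1B26 replicate 1 (-0.83, 0.0545) or replicate 2 (-0.90, 0.0515), and lower than in MC26 (-1.50, SE 0.29, adjusted p 0.00207).

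Among the type I receptors, which set the specificity of the SMAD signal, BMPR1B was called lower in M1B26, ACVR1 was called higher in MC26, and BMPR1A was called in no comparison. BMPR1B (chromosome 4, 94757955 to 95158448) was at 11.40, 15.20 and 11.33 CPM in CT, at 9.474, 10.56 and 11.08 CPM in MC26, and at 8.138, 8.024 and 8.477 CPM in M1B26. The line founded by cells sorted for this receptor had the lowest BMPR1B transcript level, and the 3 lines did not overlap. Neither the founding cells just after sorting nor BMPR1B protein was measured here, so a loss of the receptor after sorting was not tested. In M1B26 BMPR1B lay 0.61 below CT on the log2 scale (SE 0.12, edgeR adjusted p 0.00189), at 0.656 times CT. The highest value was that of CT replicate 2, and without it the difference was -0.47 (adjusted p 0.00246), and with length offsets -0.57 (adjusted p 0.00259). MC26 stood at -0.27 against CT (SE 0.12, edgeR adjusted p 0.10), which did not pass and was -0.13 (adjusted p 0.30) without CT replicate 2. M1B26 was lower than MC26 by -0.34 (SE 0.12, edgeR adjusted p 0.0483), close to the threshold. This last call was lost in 6 of the 9 fits that left out a library, those without CT replicate 1 (adjusted p 0.0525), MC26 replicate 2 (0.117) or 3 (0.119), or M1B26 replicate 1 (0.106), 2 (0.121) or 3 (0.0813), and with length offsets (-0.31, adjusted p 0.0624).

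ACVR1 (chromosome 2, 157736251 to 157876330), also called ALK2, had 16.72, 15.29 and 16.64 CPM in CT, 20.86, 19.85 and 18.92 CPM in MC26, and 16.71, 17.49 and 17.88 CPM in M1B26. All MC26 libraries lay above all others, and CT and M1B26 overlapped. ACVR1 rose by 0.29 in MC26 (SE 0.08, edgeR adjusted p 0.0117), 1.22 times CT. In M1B26 the log2 fold change was 0.09 (95% interval -0.07 to 0.26, edgeR adjusted p 0.330), and with length offsets 0.21 (adjusted p 0.050, just past the threshold). M1B26 against MC26 gave -0.20 (SE 0.08, edgeR adjusted p 0.0618), which passed only without CT replicate 2 (-0.20, 0.0320), without MC26 replicate 3 (-0.23, 0.0486) or with unscaled total counts (-0.21, 0.0441) among the settings run.

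BMPR1A (chromosome 10, 86756596 to 86932825), the most abundant of the type I receptors chosen here, had 43.86, 52.29 and 43.06 CPM in CT, 42.40, 42.76 and 43.65 CPM in MC26, and 42.86, 41.23 and 47.11 CPM in M1B26. The 3 lines overlapped. The log2 fold changes were -0.11 in MC26 against CT (95% interval -0.29 to 0.08), -0.08 in M1B26 against CT (-0.27 to 0.11) and 0.03 in M1B26 against MC26 (-0.16 to 0.21), with adjusted p values of 0.345, 0.460 and 0.823 by edgeR. The second was 0.04 with length offsets and 0.0047 without CT replicate 2. A difference within these intervals cannot be told from none.

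Among the type II receptors, the kinases that start the signal, each line had its own difference. BMPR2 (chromosome 2, 202376327 to 202567751), the type II receptor selective for BMPs and related growth and differentiation factors, was at 55.78, 68.75 and 58.91 CPM in CT, at 62.69, 63.36 and 54.75 CPM in MC26, and at 41.21, 33.09 and 41.09 CPM in M1B26. CT and MC26 overlapped, and every M1B26 library lay well below both. BMPR2 fell by 0.66 in M1B26 against CT (SE 0.11, edgeR adjusted p 4.72e-04) and by 0.65 against MC26 (SE 0.11, adjusted p 9.11e-04), to 0.631 and 0.639 times their levels. With length offsets the differences were -0.50 (adjusted p 0.00112) and -0.54 (adjusted p 0.00111), and without CT replicate 2 -0.58 (adjusted p 0.00147) and -0.66 (adjusted p 5.94e-04). MC26 against CT was -0.02 (95% interval -0.25 to 0.22, edgeR adjusted p 0.916).

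ACVR2B (chromosome 3, 38453890 to 38493142), an activin receptor that BMPs also use, had 7.417, 8.037 and 7.467 CPM in CT, 3.979, 4.707 and 5.694 CPM in MC26, and 6.741, 7.953 and 8.791 CPM in M1B26. The MC26 libraries lay below all others, while CT and M1B26 overlapped. ACVR2B fell by 0.67 in MC26 against CT (SE 0.14, edgeR adjusted p 0.00425), to 0.63 times CT, and M1B26 was higher than MC26 by 0.71 (SE 0.14, adjusted p 0.00308). M1B26 against CT was 0.04 (95% interval -0.27 to 0.35, edgeR adjusted p 0.830). With length offsets the 3 values were -0.60, 0.83 and 0.23, with the same calls.

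ACVR2A (chromosome 2, 147844517 to 147930826), the paralog of ACVR2B, had 6.531, 5.766 and 6.174 CPM in CT, 6.167, 6.694 and 5.976 CPM in MC26, and 5.726, 6.296 and 5.799 CPM in M1B26. The 3 lines overlapped. Its log2 fold changes ran from -0.08 (M1B26 against MC26) to 0.02 (MC26 against CT), with 95% intervals that together spanned -0.31 to 0.25. In the annotation 6.68% of its exons overlap ORC4 on the opposite strand.

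SMAD1 (chromosome 4, 145481194 to 145559176), which carries the signal from type I receptors to the nucleus, had 25.72, 26.69 and 24.02 CPM in CT, 19.92, 21.21 and 24.24 CPM in MC26, and 23.92, 22.98 and 24.60 CPM in M1B26. CT and M1B26 overlapped, and MC26 overlapped them only through its replicate 3, the highest of its line. In MC26 against CT the log2 fold change was -0.22 (SE 0.09, edgeR adjusted p 0.0604), not past the threshold, and without MC26 replicate 3 it was -0.30 (adjusted p 0.0144), past it. It also passed with unscaled total counts (-0.30, adjusted p 0.0256) and with a minimum mean of 50 counts (-0.24, adjusted p 0.0456). M1B26 stood at -0.09 against CT (95% interval -0.28 to 0.09) and at 0.13 against MC26 (-0.06 to 0.32), neither past the threshold.

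**Figure D3:**
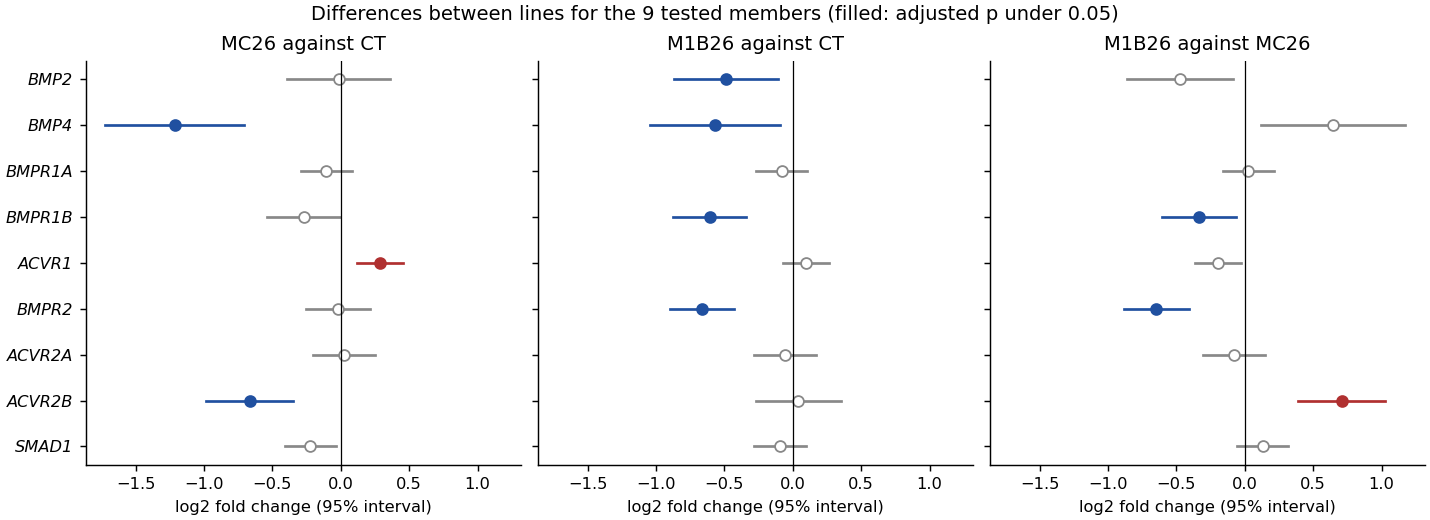
Log2 fold change of the 9 tested genes with its 95% interval (horizontal axis) in each of the 3 comparisons, from the edgeR fit over all 9 libraries. Filled symbols passed an adjusted p under 0.05, in blue where lower and in red where higher. BMP4 in MC26 has the lowest value (-1.21), and BMPR2 is filled in both comparisons with M1B26 at -0.66 and -0.65.

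The count of genes whose libraries did not overlap between lines was 4 of 9 in MC26 against CT, where this held for 50.3% of all genes tested, 4 of 9 in M1B26 against CT (59.0% of all genes) and 6 of 9 in M1B26 against MC26 (53.5%). The median log2 fold change of the 9 genes was -0.107, -0.093 and -0.080 in these comparisons, against 0.001, 0.002 and -0.001 over all genes tested. Most of the 9 genes have over 5 kb of exons. All tested genes of 5 to 10 kb had medians of -0.007, -0.051 and -0.044, and those of at least 10 kb -0.067, -0.188 and -0.122.

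The make-up of each receptor class was compared within libraries, which does not depend on the scaling between them. The drift of level with gene length described above was not removed from these shares, and genes of a class differ in length. Counts were divided by exonic length, and each gene was given as a percentage of its class. A class held only these genes: BMPR1A, BMPR1B and ACVR1 (type I), BMPR2, ACVR2A and ACVR2B (type II), SMAD1, SMAD5 and SMAD9 (receptor SMADs), or BMP2, BMP4 and BMP7 (ligands). Other genes of these kinds, such as ACVR1B, TGFBR2, SMAD2 and BMP6, were left out of the shares. TGFBR2, for instance, averaged 278.3 CPM in CT against 61.14 CPM for BMPR2. BMPR1B made up 22.3%, 25.6% and 22.5% of type I receptor transcripts in CT, 18.6%, 20.5% and 21.3% in MC26, and 17.2%, 17.2% and 16.6% in M1B26, so that the lines did not overlap. The mean difference was -6.42 percentage points between M1B26 and CT, -3.35 between MC26 and CT, and -3.07 between M1B26 and MC26. Each had a 2-sided exact permutation p of 0.10, the smallest that 3 libraries against 3 can give, and 0.15 after adjustment over 12 such tests, so none could pass 0.05. ACVR1 took 20.3 ± 2.74% of this class in CT, against 25.7 ± 1.54% in MC26 and 24.0 ± 0.927% for M1B26, and BMPR1A 56.2 ± 0.916%, 54.2 ± 0.313% and 59.0 ± 1.19% (SD, n = 3).

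BMPR2 made up 75.0%, 79.6% and 76.7% of the BMPR2, ACVR2A and ACVR2B transcripts in CT, 80.6%, 79.1% and 77.3% in MC26, and 71.4%, 64.1% and 69.3% in M1B26. M1B26 thus lay below both other lines without overlap, by -8.85 points against CT and -10.7 against MC26 (exact permutation p 0.10 and adjusted p 0.15 for both), and MC26 differed from CT by 1.86 points (exact permutation p 0.30, adjusted p 0.40). In place of BMPR2, ACVR2B took 11.1 ± 1.59% in M1B26, against 7.70 ± 0.268% in CT and 5.05 ± 1.21% in MC26. ACVR2A took 20.6 ± 2.63%, 15.2 ± 2.07% and 16.0 ± 0.531% in the same order (SD, n = 3). The highest BMPR2 share in CT and the lowest in M1B26 were those of replicate 2. In the longest class of genes these 2 libraries deviated most within their lines (0.140 and -0.140), and the part of gene length in the shares was not tested.

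SMAD1 was the second of the 3 BMP receptor SMADs, SMAD1, SMAD5 and SMAD9, in CT and in M1B26, and its share was lowest in MC26. It made up 20.3%, 19.1% and 19.8% of the transcripts of these 3 genes in CT, 14.6%, 15.6% and 18.2% in MC26, and 18.3%, 18.5% and 18.3% in M1B26. SMAD5 was the most abundant, with 74.2 ± 1.02%, 64.3 ± 2.80% and 71.3 ± 0.742%, and SMAD9 the most variable, with 6.05 ± 0.415% in CT against 19.6 ± 4.62% in MC26 and 10.3 ± 0.694% in M1B26 (SD, n = 3). Between lines the SMAD1 share differed by -3.62 points in MC26 against CT, by -1.38 in M1B26 against CT and by 2.24 in M1B26 against MC26, at an exact permutation p of 0.10 for each (adjusted p 0.15). Among BMP2, BMP4 and BMP7, BMP4 took 32.2 ± 5.11% of transcripts in CT, against 16.9 ± 3.02% in MC26 and 30.0 ± 3.21% in M1B26, with BMP2 making up nearly all of the rest. BMP7 took 0.315 ± 0.368%, 0.211 ± 0.366% and 0.519 ± 0.547% (SD, n = 3; exact permutation p 0.70 for each pair of lines).

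**Figure D4:**
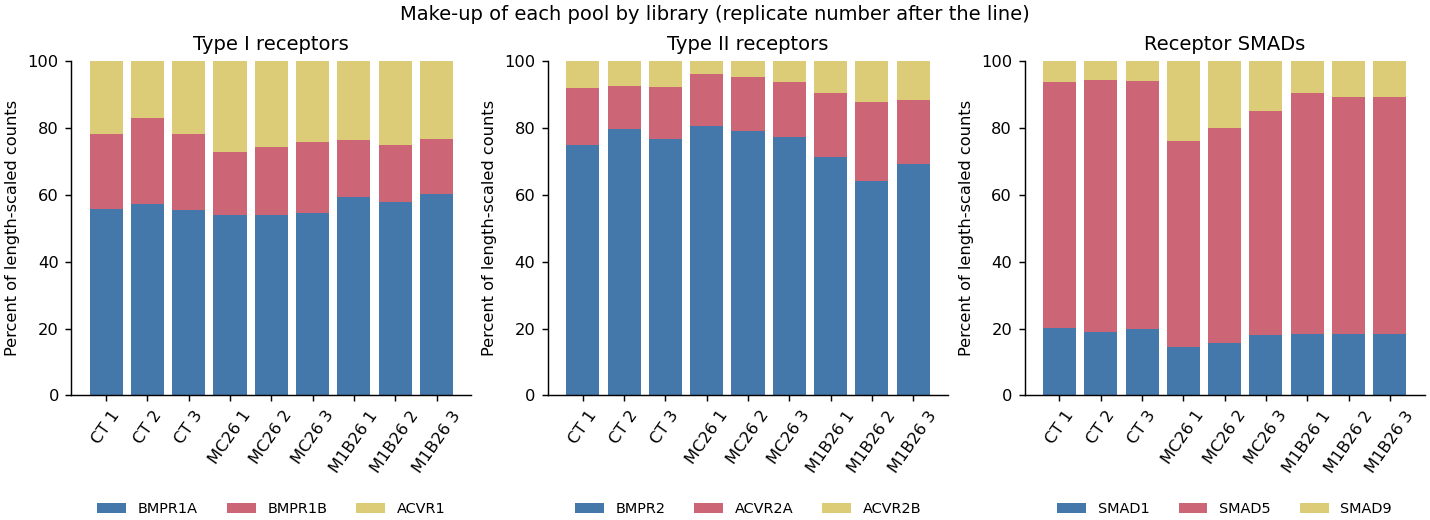
Percentage of length-scaled counts that each gene takes within the type I receptors BMPR1A, BMPR1B and ACVR1, the type II receptors BMPR2, ACVR2A and ACVR2B, and the receptor SMADs SMAD1, SMAD5 and SMAD9 (vertical axes, 0 to 100%), with 1 stacked bar for each library. BMPR2 falls from between 75.0% and 80.6% in CT and MC26 to between 64.1% and 71.4% in M1B26, and SMAD9 is widest in the MC26 bars.

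The genes around these receptors and ligands were described from 6 lists with 103 genes, of which 66 were tested. Across the lists 41 of 66 (62.1%) were called in MC26 against CT (24 higher, 17 lower), 38 (57.6%) in M1B26 against CT (18 higher, 20 lower) and 29 (43.9%) in M1B26 against MC26 (6 higher, 23 lower). Over all genes tested the shares called were 38.7%, 48.9% and 39.5%, and in M1B26 against MC26 21.2% were higher and 18.4% lower. These shares are the background for the counts of each list below. All lists were written with earlier results of these data known.

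Downstream of the receptors, the receptor SMAD SMAD9 and the inhibitory SMADs SMAD6 and SMAD7 rose in MC26. Of 7 other SMADs, 3 were higher and 1 lower in MC26 against CT, 1 higher and 1 lower in M1B26 against CT, and 3 lower in M1B26 against MC26. SMAD9, a receptor SMAD with weaker activity than SMAD1 and SMAD5, had 6.788, 6.552 and 6.296 CPM in CT, 27.53, 22.88 and 16.56 CPM in MC26, and 10.44, 11.01 and 12.23 CPM in M1B26. It rose by 1.77 in MC26 (SE 0.16, edgeR adjusted p 1.37e-05) and by 0.78 in M1B26 (SE 0.16, adjusted p 0.00217), and M1B26 was lower than MC26 (-0.99, SE 0.15, adjusted p 6.44e-04). SMAD6 and SMAD7, the inhibitory SMADs that block type I receptors, were also highest in MC26, with SMAD6 at 17.23, 13.44 and 8.329 CPM in MC26 against at most 1.562 in CT and 2.675 in M1B26, and SMAD7 at 32.72, 28.71 and 20.94 CPM in MC26 against at most 10.59 and 11.41. Neither passed in M1B26 against CT (0.61 for SMAD6 and 0.05 for SMAD7, edgeR adjusted p 0.120 and 0.821). SMAD6 did pass there with no filter (0.62, adjusted p 0.0139) and without MC26 replicate 3 (0.61, adjusted p 0.0496). In each of these 3 genes MC26 replicate 3 was the lowest of its line. SMAD5 and SMAD4, the common partner of the receptor SMADs, were not called, with log2 fold changes between -0.14 and 0.09, though SMAD4 passed with length offsets in M1B26 against MC26 (0.20, adjusted p 0.0274) and with unscaled total counts in MC26 against CT (-0.21, adjusted p 0.0493). SMAD2, a receptor SMAD of the activin and TGF-beta branch, fell in MC26 by 0.21 and in M1B26 by 0.20 (edgeR adjusted p 0.0363 and 0.0366). SMAD2 has 36.43 kb of exons, and all genes of at least 10 kb had medians of -0.067 and -0.188 in these comparisons. The SMAD2 values given here were not corrected for gene length, and those with length offsets are not reported here.

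Of 9 other receptors and co-receptors tested, 5 were higher and 2 lower in MC26 against CT, 4 higher and 2 lower in M1B26 against CT, and 1 higher and 2 lower in M1B26 against MC26. RGMA, a membrane co-receptor for BMP2 and BMP4, fell in MC26 by 2.43 and in M1B26 by 2.03 (edgeR adjusted p 6.43e-05 and 1.08e-04), from 5.187, 2.796 and 4.600 CPM in CT to between 0.5471 and 1.164 CPM in the transformed lines. TGFBR3, a co-receptor also called betaglycan, fell by 1.02 and 0.86 (edgeR adjusted p 0.00125 and 0.00238). ACVR1B, the activin type I receptor, rose by 0.49 and 0.35 (edgeR adjusted p 0.00145 and 0.00709). BAMBI, a pseudoreceptor without kinase activity that damps BMP and TGF-beta signals, rose only in MC26 of the 2 comparisons with CT, by 0.83 (edgeR adjusted p 0.00522), and M1B26 was lower than MC26 by -0.99 (adjusted p 0.00207). TGFBR1 was likewise highest in MC26, with 0.45 in MC26 against CT and -0.40 in M1B26 against MC26 (edgeR adjusted p 0.00166 and 0.00342), and TGFBR2 was higher in M1B26 than in CT by 0.47 and than in MC26 by 0.50 (edgeR adjusted p 0.00134 and 0.00140).

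Of 25 other ligands 7 were tested, of which 2 were higher and 3 lower in MC26 against CT, 1 higher and 2 lower in M1B26 against CT, and 3 higher and 2 lower in M1B26 against MC26. INHBA, the subunit of activin A, fell by 1.23 in MC26 (edgeR adjusted p 0.00143) and was higher in M1B26 than in MC26 by 1.59 (adjusted p 3.05e-04). GDF15, a distant member of the family, fell by 1.09 in MC26 (edgeR adjusted p 0.00260), and M1B26 exceeded MC26 by 0.90 (adjusted p 0.00807). GDF11, a ligand of the activin type II receptors, rose in MC26 by 0.35 and in M1B26 by 0.84 (edgeR adjusted p 0.0332 and 1.50e-04). INHBA and GDF15, like ACVR2B, were lowest in MC26, and M1B26 against CT was called for none of these 3 genes.

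Of 22 secreted antagonists and modulators 10 were tested, with 2 higher and 3 lower in MC26 against CT, 1 higher and 4 lower in M1B26 against CT, and 5 lower and none higher in M1B26 against MC26. NOG, which encodes noggin, a trap for BMP2 and BMP4, rose by 1.77 in MC26 (edgeR adjusted p 2.57e-04), to 4.103, 3.609 and 2.894 CPM from 1.186, 0.6115 and 1.147 CPM in CT. In M1B26 NOG was at 1.014, 0.8994 and 1.367 CPM, overlapping CT. FSTL3, which binds activins, rose by 1.26 in MC26 (edgeR adjusted p 5.64e-04). The proteases BMP1 and TLL1, which cleave the antagonist chordin, were lower in M1B26 than in CT by -1.20 and -0.84 (edgeR adjusted p 9.37e-07 and 0.00767). FST, which encodes follistatin, was higher in M1B26 by 0.93 (edgeR adjusted p 0.0293), a call lost without CT replicate 2 (0.0669), CT replicate 3 (0.0933), M1B26 replicate 1 (0.111) or M1B26 replicate 3 (0.0740), with length offsets (0.77, 0.0632) and with DESeq2 (0.96, 0.08002). GREM1, another BMP trap, had at most 2 counts in any library and was not tested.

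Of 23 intracellular regulators tested, 5 were higher and 7 lower in MC26 against CT, 3 higher and 9 lower in M1B26 against CT, and 1 higher and 6 lower in M1B26 against MC26. TOB1, which holds back BMP-SMAD transcription, fell in MC26 by 1.66 and in M1B26 by 0.78 (edgeR adjusted p 1.88e-06 and 1.62e-04). SKIL, a SMAD corepressor, rose by 1.27 in MC26 (edgeR adjusted p 3.53e-04) and lay at -0.21 in M1B26 against CT (adjusted p 0.369). RUNX2, a transcription factor that works with SMADs in bone, fell by 1.05 and 1.42, and HIPK2, a nuclear kinase, by 0.39 and 1.24, in MC26 and M1B26 in that order. SMURF2, a ubiquitin ligase for receptors and SMADs, rose in M1B26 by 0.63 (edgeR adjusted p 0.00532), while SMURF1 was not called, though it passed in M1B26 against MC26 without MC26 replicate 3 (-0.29, adjusted p 0.0294).

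Of 10 target genes tested, 7 were higher and 1 lower in MC26 against CT, 8 higher and 2 lower in M1B26 against CT, and 1 higher and 5 lower in M1B26 against MC26. ID1, ID2 and ID3, inhibitors of basic helix-loop-helix factors, rose in both lines by 2.15, 4.32 and 2.93 in MC26 and by 2.11, 2.26 and 2.05 in M1B26 (largest edgeR adjusted p 9.64e-06). GATA2 rose by 2.76 and 3.75. ATOH8, a target in endothelial cells and liver, was lower in M1B26 by -2.56 (edgeR adjusted p 6.48e-05) and at -0.31 in MC26 (adjusted p 0.392), against the direction of the ID genes. Of the 10 target transcripts tested, 8 were thus higher in M1B26 than in CT and 2, ATOH8 among them, were lower. BMPR1B and BMPR2 were lower in the same libraries, and a link between these differences was not tested.

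**Figure D5:**
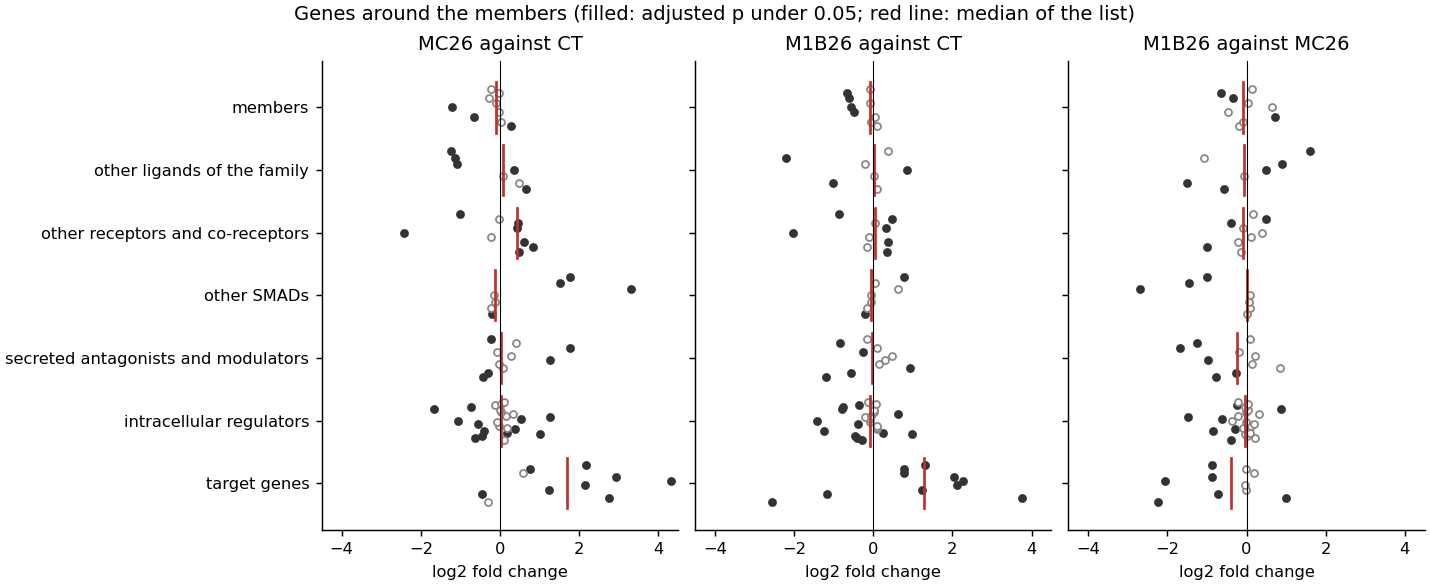
Log2 fold change (horizontal axis) of each tested gene of the pathway, by list, in the 3 comparisons. Filled points passed an adjusted p under 0.05 and the red line marks the median of a list, which for the target genes is 1.695 in MC26 and 1.273 in M1B26 against CT and -0.386 between the lines.

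The transcripts whose levels ran most like each gene over the 9 libraries were found by Pearson's r of log2 CPM among 10637 genes averaging 5 CPM or more (the gene itself left out). Since the libraries fall into 3 lines, r mostly describes agreement of the line means, and it is given without a test. For BMPR1B these were SMARCA5 (0.9899), a chromatin remodeller, and PDS5B (0.9867), a cohesin cofactor, and both were highest in CT and lowest in M1B26. For BMPR2, MAN2A1 (0.9931), a Golgi mannosidase, had like levels in CT and MC26 (66.3 and 66.4 CPM) and a lower one in M1B26 (47.7 CPM). For ACVR2B they were PRXL2A (0.9913) and PRKCH (0.9855), for ACVR1 HARS1 (0.9849) and AP2M1 (0.9758), and for BMP4 PPP2R5A (0.9878) and MARCKS (0.9827). SMAD1 ran most like SLC1A3 (0.9655) and ACSL4 (0.9639), BMPR1A like SASS6 (0.9767) and DNAJB14 (0.9580), and BMP2 like SMIM19 (0.9558) and R3HDM2 (0.9297). ACVR2A, which differed little between lines, had the lowest likeness, 0.8318 with GTF2IP20, a pseudogene that shares sequence with GTF2I and is uncertain, and 0.8292 with AKAP8L.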

How the data were processed

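The deposited values were raw read counts per gene symbol for 9 poly-A RNA libraries sequenced in paired-end mode. Per the submitters' processing notes the authors used STAR 2.7.3a and Salmon 1.1.0 on GRCh38, and the methods name GENCODE v33. The deposited counts were whole numbers, and the counting setting for strand and for reads with several alignments is not given in the sources used here.

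Groups and replicate numbers came from the sample titles. The test was edgeR 4.0.16 (R 4.3.3): filterByExpr (minimum count 10, 15717 genes kept), TMM factors, a quasi-likelihood model with the 3 lines as its only term over 9 libraries, and 2-sided glmQLFTest with Benjamini-Hochberg adjustment over all genes tested and a threshold of 0.05. The biological coefficient of variation was 10.4%. SE was the absolute log2 fold change divided by the square root of F. No pair of replicates agreed within sampling noise. The code was tested on simulated data. Shares of length-scaled counts were compared by 2-sided exact permutation tests in Python 3.11.15. Exonic lengths (union of exons) and positions came from GENCODE v44. Of the tested genes, 13830 (88%) had a length.

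The 10 genes and all lists were chosen with earlier results of these data known. Named besides them were 17 pathway genes whatever their values, the 2 genes of each list and comparison with the largest absolute log2 fold change among those called with a mean of at least 1 CPM, and the 2 genes most like each tested gene among genes averaging 5 CPM or more. A few genes that these rules or lists hold are not reported here.

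Alternatives were RLE factors, unscaled total counts, no filter, a minimum mean of 50 counts, the replicate number as a block, only the 6 libraries compared, DESeq2 1.42.0, an adjusted p under 0.01, shares of plain counts, and leaving out each library. Length offsets were chosen after the data had been seen. Total counts from 21425118 to 80076597 set the precision, and detection limits cover counting error only.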

Additional observations from a re-analysis of the deposited data

Results flagged for a closer look

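For each gene named in the report, the difference between M1B26 and MC26 is also the difference between their changes against CT. By this direct edgeR test 24 of 41 named genes tested differed between the 2 transformed lines at an adjusted p under 0.05, 7 higher and 17 lower in M1B26, where 39.5% of all genes tested were called. Among the receptors the log2 fold change of M1B26 against MC26 was -0.34 for BMPR1B, -0.65 for BMPR2 and 0.71 for ACVR2B. Among the other ligands and receptors it was -1.50 for BMP6, 0.49 for GDF11, 0.90 for GDF15, 1.59 for INHBA, -0.40 for TGFBR1, 0.50 for TGFBR2 and -0.99 for BAMBI. Of the SMADs it was -2.70 for SMAD6, -1.46 for SMAD7 and -0.99 for SMAD9. For secreted modulators it was -1.68 for NOG, -0.96 for FSTL3, -0.78 for BMP1 and -1.24 for TLL1. Regulators within the cell stood at -1.48 for SKIL, 0.88 for TOB1 and -0.85 for HIPK2, and targets at -2.06 for ID2, -0.88 for ID3, -2.24 for ATOH8 and 0.99 for GATA2. Many of these genes were named for a large change, so this count is a description of the named genes.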

How the results depend on the processing

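Over the alternatives, 620 values were unchanged, 11 lost their call, 13 gained one, 10 turned sign and 3 counts of called genes moved. When 1 library was left out, these numbers were 734, 26, 11, 24 and 6. For a gene, unchanged means the same direction and the same side of the threshold. The unchanged values also hold counts of called genes that stayed near the main count. They further hold shares, whose exact p could not pass the threshold in any setting. BMPR2 and BMPR1B in M1B26 against CT, BMPR2 and ACVR2B in M1B26 against MC26, and ACVR2B and ACVR1 in MC26 against CT kept their calls in every fit run at the 0.05 threshold, as did BMP4 in MC26 against CT wherever it was tested. The number of the 9 genes called in M1B26 against CT was 4, but 2 with no filter, 2 with the replicate block, 2 at an adjusted p under 0.01, and 2 to 3 when 1 library was left out. In M1B26 against MC26 it was 3, and 2 to 5 when 1 library was left out (5 without CT replicate 2). Length offsets gave 0.04 for BMPR2 in MC26 against CT, and in M1B26 against CT 0.04 for BMPR1A, 0.05 for SMAD5, 0.16 for SMAD4, -0.04 for SMAD7 and -0.11 for NOG. Unscaled total counts gave -0.05 for ACVR2A in MC26 against CT and, in M1B26 against CT, -0.05 for ACVR2B, -0.04 for SMAD7 and -0.05 for TGFBR1. None of these 10 sign changes concerned a called value, and their cause was not tested. Unscaled counts moved the median of all genes by -0.075 in MC26 and -0.091 in M1B26 against CT.

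Leaving out 1 library turned the sign of these uncalled values. The ranges in MC26 against CT were -0.14 to 0.10 for BMP2, -0.07 to 0.08 for BMPR2, -0.02 to 0.07 for ACVR2A and -0.07 to 0.35 for FST. In M1B26 against CT they were -0.13 to 0.0047 for BMPR1A, -0.05 to 0.14 for ACVR2B, -0.09 to 0.02 for SMAD5, -0.05 to 0.13 for SMAD7, -0.01 to 0.12 for TGFBR1, -0.11 to 0.22 for NOG and -0.11 to 0.02 for SMURF1. In M1B26 against MC26 they were -0.03 to 0.07 for BMPR1A and -0.12 to 0.02 for ID1. The BMP7 share of ligands ranged from -0.315 to 0.0986 points in MC26 against CT and from -0.0806 to 0.464 in M1B26 against CT.

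With the replicate number as a block, 3, 2 and 2 of the 9 genes were called in the 3 comparisons, BMP2 (adjusted p 0.0521) and BMP4 (0.0572) losing their calls in M1B26 against CT and BMPR1B (0.0530) in M1B26 against MC26. Deviations of equally numbered libraries correlated at -0.157 to 0.271, with 3 of 9 pairs over 0.1. Differently numbered libraries gave -0.258 to 0.248, with 4 of 18 pairs over 0.1. So few correlations cannot decide whether the numbers pair libraries. Depth limits BMP7 and GREM1, which lay at or under 3 counts in every library, and BMP4, with 52 to 171 counts per line.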
